A study of Mus musculus with 12 samples.

Results

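The 34 genes described here carry glucose into the cell, break it down to pyruvate and lactate, and govern the use of pyruvate inside the mitochondrion. They were taken by name: 5 carriers of glucose or lactate, 16 glycolytic enzymes, 4 bifunctional regulators of the PFKFB family, 6 subunits or kinases of pyruvate dehydrogenase, and 3 related genes, namely Hif1a, Bnip3 and G6pdx. All 34 were found among the 38924 genes in the deposited counts, each on 1 row, and 33 passed the expression filter. The 34th, Pdk4, was at 0 in 6 of 12 libraries and was not tested.

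RNA was counted in 12 libraries, 3 from each of 4 cell types sorted from mouse embryos at E7.25, during gastrulation. Every embryo was of the mouse line Foxa2Cre:Rosa26-YFP, in which Cre is driven by Foxa2 and switches on a yellow fluorescent protein (YFP) from the Rosa26 locus, so that cells with a Foxa2 history and their progeny stay labelled. There was therefore no embryo without these alleles. The types were cardiac mesoderm with YFP (YFP+ cells, ventricular by their label), cardiac mesoderm without it (YFP- cells, labelled non-ventricular), endoderm sorted for the surface protein EPCAM, and hematopoietic mesoderm sorted for the receptor KDR. The number of embryos behind a library is not given in the sources used here, and nothing says that the 3 libraries of a type came from separate embryos, so the p-values measure only the spread between these libraries, which may be technical. RNA was total RNA, amplified from very small amounts. In sorted bulk samples a lower level may reflect fewer cells that express a gene or less RNA in each of them, and these cannot be told apart.

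Glycolysis splits glucose into pyruvate in a chain of cytosolic steps. Hexokinase traps the sugar, phosphofructokinase commits it, and pyruvate kinase ends the chain. Lactate dehydrogenase then turns pyruvate into lactate, which leaves through monocarboxylate carriers, or pyruvate dehydrogenase sends it to the citric acid cycle. Many steps have several isoenzymes, encoded by separate genes and used by different tissues. The gastrulating mouse embryo is known for high glucose uptake and lactate release, and HIF1A, the oxygen-sensitive subunit of a transcription factor, is a known activator of many of these genes.

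Gene counts ran from 4472800 to 7888631 a library. Hematopoietic libraries detected 12484 to 14491 genes and endoderm libraries 18547 to 18618. Some tested genes reached 100 counts in 1 library of a type but had 3 or fewer in another. Their share of those reaching 100 was 14% in hematopoietic mesoderm, 8.61% in YFP+ cells, 3% in YFP- cells and 0.296% in endoderm. The part of such uneven detection in the low or absent counts of hematopoietic mesoderm below was not tested. Levels are CPM, counts scaled to a common library size with trimmed-mean (TMM) factors, and 3 counts were worth 0.357 to 0.723 CPM. Epcam went with the endoderm label and Pdgfra with the cardiac label, whereas Kdr was shared. Foxa2 RNA did not mark the YFP+ cells, whose label records a Foxa2 history, at 0.416, 0 and 5.92 CPM. Epcam was 220.3 ± 18.5 CPM (SD, n = 3) in endoderm and at most 68.9 in the other 9 libraries, Pdgfra was 204 to 387 in the 6 cardiac libraries and at most 48.3 elsewhere, Kdr was 665 to 965 in hematopoietic mesoderm but also 444 to 622 in the cardiac libraries, and Foxa2 was 52.3 to 62.3 in endoderm and at most 5.92 elsewhere. The 14 endoderm markers summed to 3332, 1355 and 2050 CPM in endoderm libraries 1 to 3, an uneven spread, and to 75.2 to 257 in the others. Of the 6 extraembryonic ectoderm markers, 2 (Elf5 and Tfap2c) had their highest type mean in endoderm. Bmp4 and Esrrb were highest in hematopoietic mesoderm, Cdx2 in YFP- cells and Eomes in YFP+ cells. Of the 8 epiblast and streak markers, 5 (Pou5f1, Nanog, Utf1, Dnmt3b and Fgf8) had their highest type mean in endoderm, whereas T was highest in hematopoietic mesoderm, Mixl1 in YFP- cells and Eomes in YFP+ cells. Utf1 was 108 to 116 CPM in endoderm and at most 19.8 elsewhere, Nanog was 31.0 to 50.5 and at most 26.1 elsewhere, and the 8 together summed to 1502 to 1693 CPM against 693 to 1474 in the other types. The part of cells with these markers in the endoderm results below was not tested. The 12 hematopoietic markers summed to 3263, 3612 and 2908 CPM in hematopoietic libraries 1 to 3 and to at most 1044 elsewhere. The 10 cardiac markers summed to 222, 322 and 744 CPM there and to 1113 to 1481 in the cardiac libraries. Hematopoietic library 3 thus kept a high hematopoietic sum but differed from libraries 1 and 2 in some markers. Hand1 was 417 CPM against 47.5 and 81.4, Eomes 264 against 49.4 and 28.2, and Gata1 0.210 against 74.2 and 46.6. Utf1, Nanog, Hand1, Eomes and Gata1 were chosen after their values were seen. For several results below that rest on that library, values without it are also given. Counts of members by highest type, summed levels and counts of members without overlap include it.

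4 promoters are printed first, each of a member whose level or ratio is described below. They do not cover all such members. Slc2a3 had no window in the RefSeq table, and the windows of Slc2a1, Slc16a3, Pfkl and Pfkm are not printed. Each printed window is the 250 bases before a RefSeq gene start on GRCm38.p6, read 5′ to 3′ on the gene's own strand. The capitals mark ACGTG, a form of the core of the hypoxia response element, on either strand. That core was sought as ACGTG and, for the other strand, CACGT. Inside the palindrome CACGTG, which is also the E-box of the MYC and USF families, both searches match and were counted as 2. The windows are chr3:104638414-104638663 (plus strand) for Slc16a1, the lactate carrier MCT1; chr7:46845554-46845803 (plus strand) for Ldha, the lactate dehydrogenase subunit of muscle type and the first of 2 windows listed for it; chr13:6648772-6649021 (minus strand) for Pfkp, the platelet-type phosphofructokinase; and chr6:142507958-142508207 (minus strand) for Ldhb, the heart-type lactate dehydrogenase subunit.
Slc16a1: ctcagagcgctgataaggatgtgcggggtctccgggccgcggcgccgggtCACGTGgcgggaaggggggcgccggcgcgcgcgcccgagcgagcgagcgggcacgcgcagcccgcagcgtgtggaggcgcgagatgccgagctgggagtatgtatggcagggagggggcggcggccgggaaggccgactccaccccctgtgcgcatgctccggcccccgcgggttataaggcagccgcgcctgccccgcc
Ldha: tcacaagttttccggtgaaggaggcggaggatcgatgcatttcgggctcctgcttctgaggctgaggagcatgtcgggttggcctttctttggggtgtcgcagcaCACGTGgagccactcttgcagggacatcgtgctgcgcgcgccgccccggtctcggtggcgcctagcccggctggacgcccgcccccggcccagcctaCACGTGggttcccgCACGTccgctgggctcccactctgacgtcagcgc
Pfkp: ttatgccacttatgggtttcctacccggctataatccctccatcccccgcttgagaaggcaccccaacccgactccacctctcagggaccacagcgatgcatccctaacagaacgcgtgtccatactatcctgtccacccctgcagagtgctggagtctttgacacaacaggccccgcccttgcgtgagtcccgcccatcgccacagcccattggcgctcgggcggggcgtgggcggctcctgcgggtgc
Ldhb: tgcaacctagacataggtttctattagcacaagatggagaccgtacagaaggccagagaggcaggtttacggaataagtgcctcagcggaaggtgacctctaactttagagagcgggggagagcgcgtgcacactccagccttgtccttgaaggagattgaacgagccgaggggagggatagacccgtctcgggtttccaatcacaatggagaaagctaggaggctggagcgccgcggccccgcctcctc

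ACGTG was matched 5 times in the printed Ldha window, 0 times in the second window listed for Ldha and 2 times in the Slc16a1 window. No ACGTG was found in the Pfkp and Ldhb windows, which do hold GCGTG. Over the 33 members with a promoter in the RefSeq table, 21 of 52 windows held ACGTG (40.4%), against 5444 of 32851 windows in the whole table (16.6%). The median GC content was 60.8% in the members' windows and 52.4% in all windows, and ACGTG holds a CG pair, so the shares are not matched for base composition. A match is a description of the sequence, and no match says only that these letters are not in these 250 bases.

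The pathway as a whole was expressed in all 4 types. A mean of at least 5 CPM over the 12 libraries was reached by 29 members, and 27 had counts in every library. Of the 18 members with a mean of at least 50 CPM, 13 varied by less than 2-fold between the highest and lowest type mean, and 5 varied by more. The members were highest in hematopoietic mesoderm in 16 cases, in YFP+ cells in 8, in endoderm in 7 and in YFP- cells in 3. The share of all genes highest in each type was not counted, so these numbers have no background. Some of the 16 rest on hematopoietic library 3. Pdk1, for example, was 52.5, 33.6 and 112 CPM in the hematopoietic libraries, with a mean of 63.2 in endoderm. The 16 glycolytic enzymes together took 1412 to 1527 CPM in the endoderm libraries, 1448 to 1736 in YFP- cells, 1786 to 1828 in YFP+ cells and 1777 to 2064 in hematopoietic mesoderm.

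**Figure D1:**
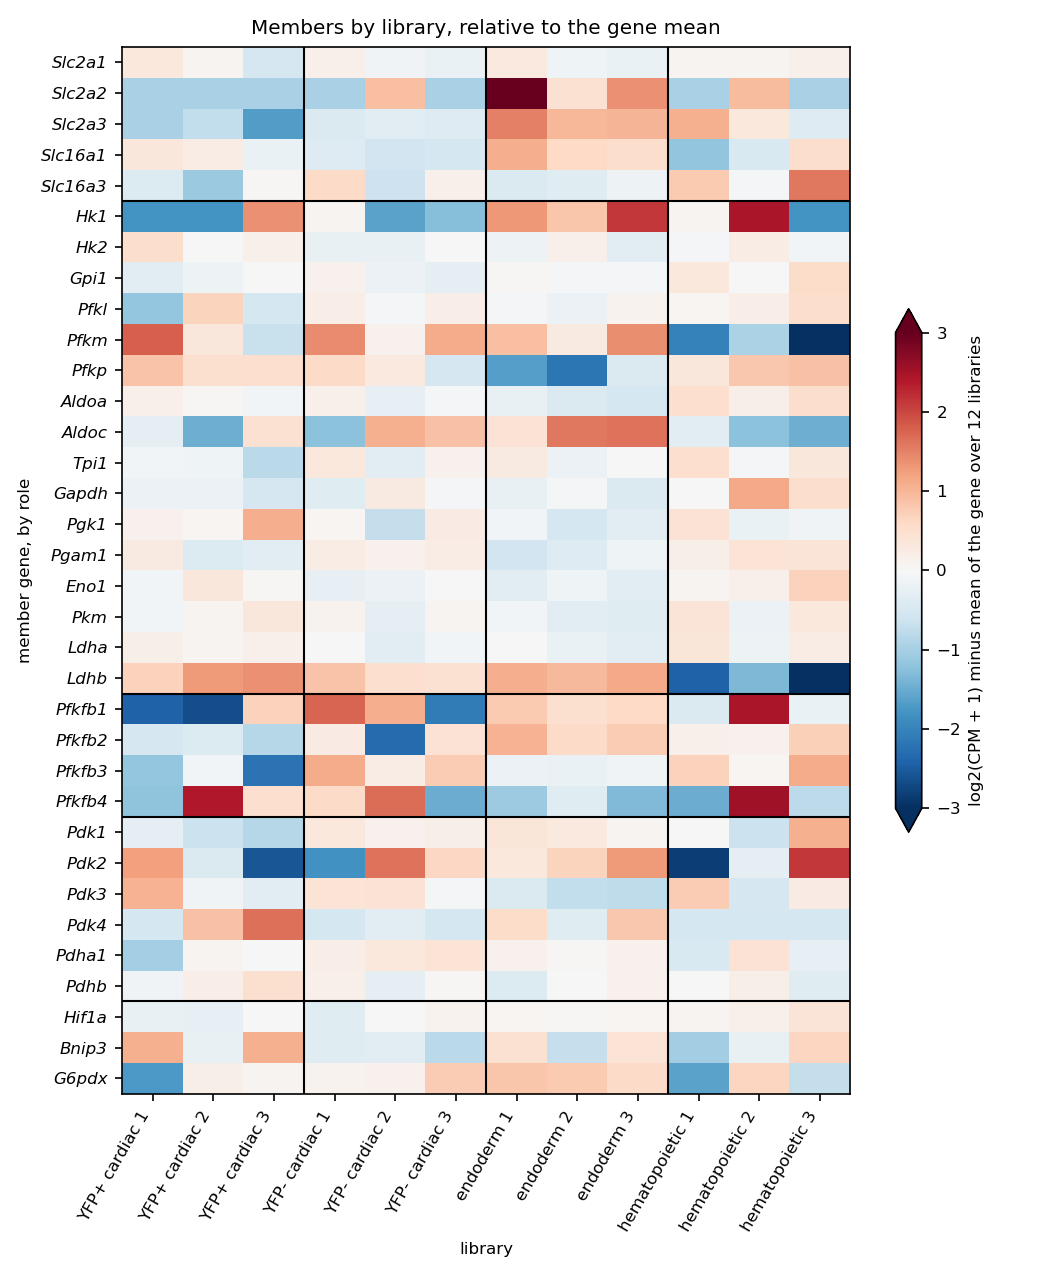
Level of the 34 members (rows, in order of role) in the 12 libraries (columns), as log2(CPM + 1) minus the mean of the gene over the libraries. Colours stop at 3 in either direction. Most rows are pale, and the strong colours that hold across a whole type are those of Slc2a3 and Pfkp in endoderm and of Ldhb and Pfkm in hematopoietic mesoderm.

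Of the 33 members tested, 5 passed an adjusted p of 0.05 in at least 1 of 8 tests, which were the 6 pairs of types, any difference among the 4 types, and endoderm against the mean of the 3 mesoderm types. These were Slc2a3, Slc16a1, Pfkp, Aldoa and Ldhb. The share of all genes called in at least 1 of the 8 tests was not counted, so the number 5 has no background. Adjusted p-values are from edgeR's quasi-likelihood test with Benjamini-Hochberg adjustment over 14170 genes. Any difference among the types was called for 1 member, Slc2a3, while 6.03% of all genes tested were called. With limma voom that call was lost (adjusted p = 0.0722) and the 1 member called was Pfkp, with a background of 7.74%. Endoderm against the mean of the mesoderm types called 3 members (9.09%), with a background of 7.43%. No test called more than 3 members.

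Slc2a3 encodes GLUT3, a glucose carrier of high affinity, and lies on chromosome 6 (122727809 to 122801640, minus strand, GRCm38). It was the member that differed most clearly between the types, being high in endoderm and low in both cardiac fractions. In endoderm its levels were 1017, 703 and 714 CPM. YFP+ cells had 179, 213 and 109.6 CPM, and YFP- cells had 263, 277 and 269 CPM. In hematopoietic mesoderm the 3 libraries ran from 745 through 443 to 272 CPM. The endoderm libraries lay above all 6 cardiac libraries, whereas hematopoietic library 1 reached into the endoderm range and library 3 into the range of YFP- cells. The means were 811 ± 178 CPM in endoderm (SD, n = 3), 487 ± 239 in hematopoietic mesoderm, 269.9 ± 6.90 in YFP- and 167 ± 52.6 in YFP+ cells.

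Slc2a3 was 4.85-fold lower in YFP+ cells than in endoderm (log2 fold change -2.28, SE 0.33, edgeR adjusted p = 0.00316), lower in 3 of 3 same-numbered pairs. It was the 1 member called in that pair, where 1.54% of all genes were called. Against YFP- cells the difference from endoderm was 3.01-fold (log2 fold change -1.59, SE 0.32, edgeR adjusted p = 0.0261), with a background of 1.31%. The first of these calls and that against the mean of the mesoderm types (log2 fold change 1.53, SE 0.24, edgeR adjusted p = 0.00215) passed in each of 19 and 18 alternatives, leaving out any library included, with adjusted p-values of at most 0.0232 and 0.0252. The call between YFP- cells and endoderm was lost on leaving out any 1 library of either type, with a highest adjusted p of 0.153. YFP+ cells were also 2.91-fold below hematopoietic mesoderm (edgeR adjusted p = 0.0364), a call that was lost in 11 of 19 alternatives (edgeR adjusted p up to 0.429), among them those without YFP+ library 1 or 3, hematopoietic library 1, or any 1 YFP- or endoderm library, and held without hematopoietic library 3 (edgeR adjusted p = 0.00584). The cardiac fractions did not overlap in Slc2a3, but their 1.61-fold difference did not pass (edgeR adjusted p = 0.660), nor did that between endoderm and hematopoietic mesoderm (1.67-fold, edgeR adjusted p = 0.179).

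**Figure D2:**
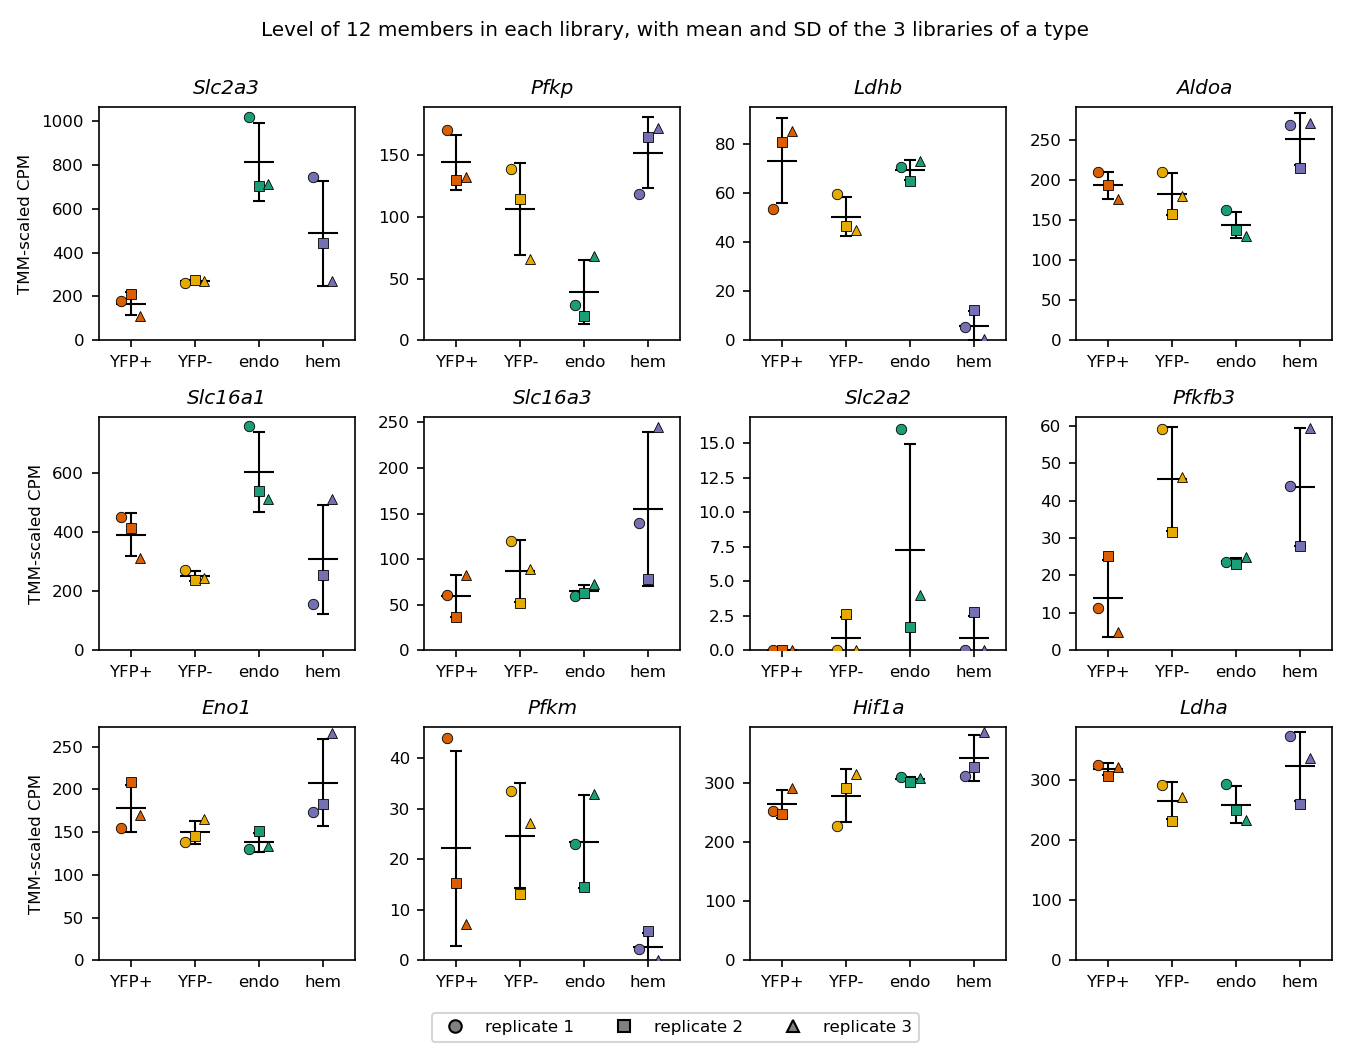
Level of the 12 members given in full in each library, in TMM-scaled CPM, with the mean and SD of the 3 libraries of a type; endo is endoderm, hem is hematopoietic mesoderm, and marker shapes give the replicate number. Slc2a3 lay between 703 and 1017 CPM in endoderm and at 277 CPM or below in the cardiac libraries, while Ldhb lay at 12.3 CPM or below in hematopoietic mesoderm and at 45.2 CPM or above elsewhere.

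Slc2a1, which encodes the widely used carrier GLUT1, was the most even member of at least 50 CPM, with type means between 332 and 368 CPM and a highest-to-lowest ratio of 1.11. None of its pairs passed (lowest edgeR adjusted p among the pairs 0.782, SE 0.20 on the log2 scale in each). Per kilobase of exon, Slc2a1 stood at 94.6 to 105 CPM in every type, and Slc2a3 at 23.1, 37.2, 112 and 67.2 CPM in YFP+ cells, YFP- cells, endoderm and hematopoietic mesoderm.

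The ratio of Slc2a3 to Slc2a1 within a library does not depend on the scaling between libraries. As log2 of counts (plus 0.5) it averaged 1.24 ± 0.07 in endoderm, 0.28 ± 0.76 in hematopoietic mesoderm, -0.29 ± 0.20 in YFP- and -1.04 ± 0.25 in YFP+ cells (SD, n = 3 each). Without hematopoietic library 3 the hematopoietic mean was 0.66. The 4 types differed (exact permutation test of the F statistic over 369600 splits, two-sided, p = 0.000779, adjusted over 6 ratios 0.00468), and the unadjusted p stayed at or below 0.00883 in all alternatives run. In shares per kilobase, Slc2a3 made up 53.3% ± 1.12 of the pair in endoderm and 19.1% ± 2.79 in YFP+ cells.

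Slc2a2, the low-affinity carrier GLUT2 of liver and yolk sac endoderm, was rare. It had 16.1, 1.68 and 4.04 CPM in the endoderm libraries, 2.66 CPM in YFP- library 2 and 2.77 in hematopoietic library 2, and no counts in the other 7 libraries, among them all 3 of YFP+ cells. Endoderm was at least 12.6-fold higher than YFP+ cells against a floor of 3 counts a library, but the levels were low and uneven and the difference did not pass (edgeR adjusted p = 0.187).

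Lactate and pyruvate cross the membrane through the monocarboxylate carriers MCT1, encoded by Slc16a1 on chromosome 3 (104638668 to 104658462, plus strand), and MCT4, encoded by Slc16a3 on chromosome 11 (120948480 to 120960868, plus strand), a carrier of cells that export much lactate. Slc16a1 was 758, 539.6 and 511 CPM in endoderm, 451, 415 and 311 in YFP+ cells and 272, 239 and 246 in YFP- cells. In hematopoietic mesoderm it ran from 156 and 257 to 512 CPM, the last being library 3. Endoderm was thus high, YFP- cells low and even, and hematopoietic library 3 as high as the lowest endoderm library. Endoderm exceeded the mean of the mesoderm types 1.93-fold (log2 fold change 0.95, SE 0.25, edgeR adjusted p = 0.0384). Libraries of the same number carry the same date in their deposited names, whose meaning is not given. With that number as a block the edgeR adjusted p was 0.0636. The call was also lost without any 1 endoderm library and without library 2 or 3 of either cardiac fraction (highest edgeR adjusted p 0.233), but held without hematopoietic library 3 (edgeR adjusted p = 0.00182). The cardiac fractions did not overlap in Slc16a1, with YFP+ cells 1.55-fold higher, a difference that did not pass (edgeR adjusted p = 0.705).

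Slc16a3 was highest in hematopoietic mesoderm, at 139.7, 78.8 and 245 CPM, again with library 3 on top. It was 59.2, 62.7 and 72.9 CPM in endoderm, 120.2, 51.8 and 89.8 in YFP- cells and 60.8, 36.8 and 82.5 in YFP+ cells. Hematopoietic mesoderm lay above endoderm without overlap, 2.38-fold, but no pair passed (lowest edgeR adjusted p 0.121). Without hematopoietic library 3 the log2 difference of endoderm from hematopoietic mesoderm was -0.75 in place of -1.25, and the lowest edgeR adjusted p of any pair was 0.308. The ratio of the carriers differed between the types. Log2 of Slc16a3 over Slc16a1 averaged -0.97 ± 0.78 in hematopoietic mesoderm, -1.61 ± 0.53 in YFP- cells, -2.76 ± 0.79 in YFP+ cells and -3.20 ± 0.44 in endoderm (exact permutation p = 0.0132, adjusted over 6 ratios 0.0246, two-sided). The highest ratio, in hematopoietic library 1, was -0.16. The unadjusted p was at most 0.0326 in all alternatives.

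Glucose is trapped by hexokinase, and of the member hexokinases Hk2, the regulated form of muscle and embryo, was far above Hk1 in every library. Its type means were 289 ± 57.2 CPM in YFP+ cells, 220.0 ± 18.6 in YFP- cells, 228 ± 40.1 in endoderm and 251 ± 30.3 in hematopoietic mesoderm. Hk1, the common form of adult brain, reached at most 17.8 CPM and had no counts in 3 libraries. Per kilobase Hk2 made up 97.2% to 99.6% of the pair, and the ratio did not differ detectably between types (exact permutation p = 0.286). In hematopoietic mesoderm Hk1 was at 2.65, 17.8 and 0 CPM, so that 1 library had over 100 counts and another none. Gpi1, the isomerase that follows, lay between 74.5 and 138 CPM in all libraries and passed in no pair.

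Phosphofructokinase, the committing step, is built from 3 subunit types: Pfkl (liver), Pfkm (muscle) and Pfkp (platelet). Type means of Pfkl lay between 93.0 and 124 CPM, although YFP+ cells spread from 45.0 to 163. Pfkp, on chromosome 13 (6579768 to 6648777, minus strand), was 28.9, 19.8 and 68.5 CPM in endoderm against 119, 165 and 172 in hematopoietic mesoderm, 169.8, 129.6 and 132 in YFP+ cells and 139, 114 and 65.8 in YFP- cells. Endoderm was low in each library, and only endoderm library 3 and YFP- library 3 met. Pfkp was 3.88-fold lower in endoderm than among hematopoietic libraries (log2 fold change -1.96, SE 0.44, edgeR adjusted p = 0.0271), and endoderm was 3.39-fold below the mean of the mesoderm types (log2 fold change -1.76, SE 0.39, edgeR adjusted p = 0.0148). Both calls were lost without endoderm library 1 (edgeR adjusted p = 0.124 and 0.09997) or endoderm library 2 (0.117 and 0.0800), and the first also in a fit of those types alone (0.0551). Without endoderm library 3 the log2 fold changes were larger, at -2.61 and -2.42. Both calls held without hematopoietic library 3 (edgeR adjusted p = 0.0481 and 0.0186). The difference of YFP+ cells from endoderm was 3.68-fold with no overlap and just missed the threshold (edgeR adjusted p = 0.0552). An exon of Pfkp is overlapped by Pitrm1 on the opposite strand, and the strand setting of the counting is not given in the sources used here.

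Pfkm, on chromosome 15 (98092589 to 98132451, plus strand), had another order. It was 2.17, 5.72 and 0 CPM in hematopoietic mesoderm, the 0 in library 3, against 23.1, 14.5 and 32.8 in endoderm, 33.5, 13.2 and 27.2 in YFP- and 43.9, 15.3 and 7.22 in YFP+ cells. All hematopoietic libraries lay below all other libraries. The fitted differences were about 3 log2 units (3.06 to 3.21), with SEs of 1.24 to 1.25, and did not pass (lowest edgeR adjusted p 0.148). DESeq2 called Pfkm in each of the 3 pairs with hematopoietic mesoderm (adjusted p = 0.0343 for YFP+ cells, 0.0312 for YFP- cells and 0.0219 for endoderm), where it called 10.5%, 7.43% and 13.1% of all genes. Without hematopoietic library 3 the log2 differences of Pfkm from hematopoietic mesoderm were 2.48 in YFP+ cells, 2.63 in YFP- cells and 2.56 in endoderm, none past edgeR's threshold. An exon of Pfkm is overlapped by Senp1 on the opposite strand.

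As ratios to Pfkl within a library, both subunits differed between the types. Log2 of Pfkp over Pfkl averaged 0.83 ± 1.13 in YFP+ cells, 0.28 ± 0.18 in hematopoietic mesoderm, -0.13 ± 0.62 in YFP- cells and -1.55 ± 0.78 in endoderm (exact permutation p = 0.0205, adjusted 0.0246). Log2 of Pfkm over Pfkl averaged -2.24 ± 1.91 in YFP+ cells, -2.28 ± 0.55 in YFP- cells and -2.17 ± 0.45 in endoderm. In hematopoietic mesoderm it averaged -6.79 ± 3.24 (exact permutation p = 0.0180, adjusted 0.0246). The YFP+ mean hides a wide spread, with libraries 1 to 3 at -0.03, -3.41 and -3.28. Hematopoietic library 3, with no Pfkm count, stood at -10.5, a value set by the 0.5 added to each count, and without it the hematopoietic mean was -4.95. When libraries were exchanged only within a replicate number, the replicate block, these p-values were 0.0660 and 0.0608. Leaving out hematopoietic library 3 gave 0.0870 for Pfkm, and leaving out endoderm library 1, endoderm library 2 or YFP+ library 1 gave 0.0605, 0.0796 and 0.0532 for Pfkp.

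**Figure D3:**
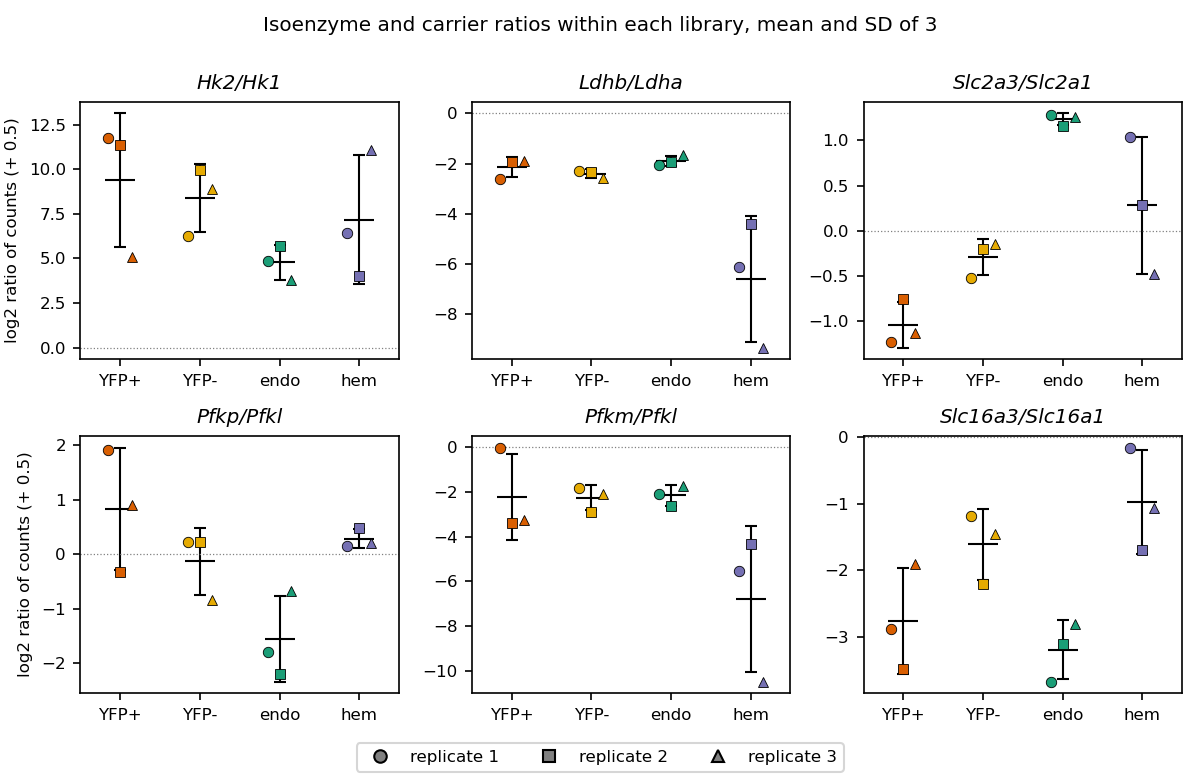
Log2 ratio of counts (each plus 0.5) of 6 gene pairs within each library, with the mean and SD of 3 libraries; the dotted line is equal counts. Endoderm was the type in which Slc2a3 exceeded Slc2a1 in every library (1.16 to 1.28), and hematopoietic mesoderm had the lowest Ldhb to Ldha ratio (-4.39 or below).

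Among the enzymes after phosphofructokinase, Aldoa and Ldhb passed a test. Aldoa encodes the main aldolase, which splits the phosphorylated sugar, and lies on chromosome 7 (126795234 to 126800751, minus strand). It was 269, 215 and 271 CPM in hematopoietic mesoderm, 211, 193 and 177 in YFP+ cells, 210.5, 158 and 180.5 in YFP- cells, and 162, 138 and 131 in endoderm. The hematopoietic libraries lay above all other libraries. Between endoderm and hematopoietic mesoderm Aldoa differed 1.75-fold (log2 fold change -0.81, SE 0.19, edgeR adjusted p = 0.0326). The call was lost without the expression filter and without YFP- library 1 or 3, hematopoietic library 1 or 3, or any 1 endoderm library (edgeR adjusted p up to 0.159, and 0.0639 without hematopoietic library 3). An exon of Aldoa is overlapped by Fam57b on the other strand. Aldoc, the aldolase of brain, was at most 7.61 CPM.

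Eno1, enolase, on chromosome 4 (150236721 to 150248879, plus strand), followed the order of Aldoa, with 174, 183 and 266 CPM in hematopoietic mesoderm, 155, 209 and 170.3 in YFP+ cells, 139, 146 and 165 in YFP- cells, and 130.1, 151 and 133 in endoderm. Hematopoietic mesoderm lay above endoderm and YFP- cells without overlap, but no pair passed (lowest edgeR adjusted p 0.132). Tpi1, Gapdh, Pgk1, Pgam1 and Pkm, which carry the sugar from triose phosphate to pyruvate, were called in none of the tests. Their type means differed by 1.36-fold (Pkm, 209 to 283 CPM) to 1.89-fold (Gapdh, 36.8 to 69.4 CPM). Of the 16 glycolytic enzymes, 10 were highest in hematopoietic mesoderm and 7 lowest in endoderm, numbers for which no share of all genes was counted. In endoderm against hematopoietic mesoderm, the edgeR test called 3 of the 16 (Pfkp and Aldoa lower, Ldhb higher), with a background of 5.65%, and their median log2 fold change was -0.32 against 0.07 for all genes tested.

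**Figure D4:**
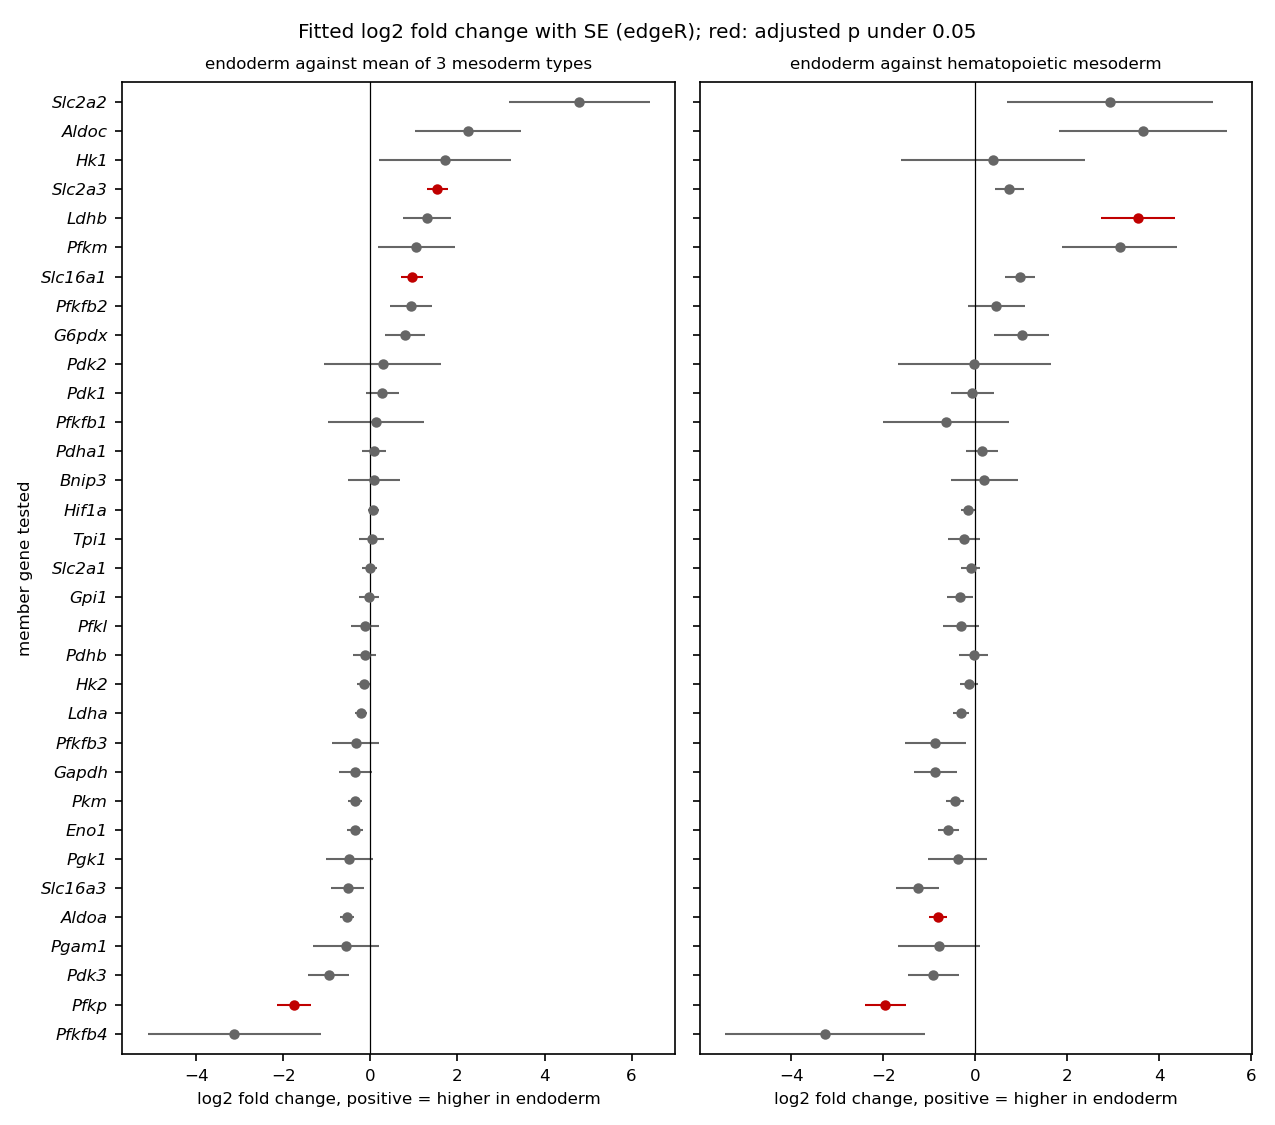
Fitted log2 fold change with its SE for the 33 members tested, in endoderm against the mean of the 3 mesoderm types (left) and against hematopoietic mesoderm (right); positive is higher in endoderm and red marks an edgeR adjusted p under 0.05. Slc2a3 and Slc16a1 (right of 0) and Pfkp (left of 0) are red on the left, and Ldhb, Aldoa and Pfkp on the right.

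Pyruvate and lactate are exchanged by lactate dehydrogenase, a tetramer of the Ldha and Ldhb products, of which the Ldhb form is typical of tissues that oxidise lactate. Ldha, on chromosome 7 (46841475 to 46855627, plus strand), varied little, with 326, 307 and 323 CPM in YFP+ cells, 293, 233 and 273 in YFP- cells, 293, 251 and 233 in endoderm and 373, 260.0 and 337 in hematopoietic mesoderm. No pair passed (lowest edgeR adjusted p 0.298). YFP+ cells lay above YFP- cells without overlap, by 1.20-fold.

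Ldhb, on chromosome 6 (142490249 to 142507957, minus strand), was low in hematopoietic mesoderm, at 5.30, 12.3 and 0.420 CPM. It was 53.5, 80.9 and 85.7 CPM in YFP+ cells, 59.7, 46.7 and 45.2 in YFP- cells and 70.8, 65.3 and 73.2 in endoderm. Each hematopoietic library lay below all 9 others. Ldhb was 11.5-fold higher in endoderm than in hematopoietic mesoderm (log2 fold change 3.52, SE 0.80, edgeR adjusted p = 0.0273) and 12.1-fold higher in YFP+ cells (log2 fold change 3.60, SE 0.81, edgeR adjusted p = 0.0462), where 1.79% of all genes were called. With the replicate number as a block the second had an edgeR adjusted p of 0.0735. It was lost in 13 of 19 alternatives (adjusted p up to 0.357), among them limma voom, a fit of those types alone and the fits without hematopoietic library 1 or any 1 library of the other types. The call in endoderm was lost in 5 (up to 0.0901), namely without hematopoietic library 1, without any 1 endoderm library and in a fit of those types alone. The 8.34-fold difference of YFP- cells did not pass (edgeR adjusted p = 0.0959). In that pair edgeR called no member (0.593% of all genes), limma voom none (0.67%) and DESeq2 2, which is 6.06% of the members against 7.43% of all genes. There 4 of 33 members had an unadjusted edgeR p under 0.05, against 17.4% of all genes. Without hematopoietic library 3, which had the lowest level, all 3 differences passed with log2 fold changes of 2.98, 3.05 and 2.51 (edgeR adjusted p = 0.00898, 0.0108 and 0.0343). Without hematopoietic library 2, which had the highest level, the log2 fold change was 4.62 in endoderm and 4.69 in YFP+ cells.

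Per kilobase, Ldhb made up 36.3% ± 3.14 of the pair in endoderm, 32.4% ± 5.84 in YFP+ cells, 28.5% ± 2.31 in YFP- cells and 4.08% ± 4.52 in hematopoietic mesoderm. The hematopoietic shares were 2.91%, 9.07% and 0.262%, and their mean was 1.58% without library 2. The log2 ratio differed between the types (exact permutation p = 0.00325, adjusted over 6 ratios 0.00974, two-sided) and its unadjusted p was at most 0.0245 in the alternatives. Sequence copies bear on this pair. At least 95% identity over 100 bases or more to another annotated gene covered 76.8% of the Ldhb transcript (1 pseudogene) and 55.0% of the Ldha transcript (5 pseudogenes), and reads that mapped to several places, 35.1% to 44.8% of those tallied in a library, were not assigned to a gene.

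The same limit touches 12 members whose transcripts match an annotated pseudogene, 9 of them over at least 50% of their length. Gapdh matched 77 pseudogenes over 88.0% of its transcript, Bnip3 94.2%, Eno1 85.6%, Pdhb 71.2%, Pgk1 68.8%, Pkm 65.5% and Gpi1 55.3%, while 15 members, Slc2a3, Slc16a1 and Aldoa among them, matched no other gene. Per kilobase of exon, Ldha (78.3 to 97.7 CPM between the type means) and Aldoa (49.4 to 86.4) were the highest of the glycolytic enzymes, and Pgam1 (2.70 to 4.66) was the lowest of those from Tpi1 to Pkm. Gapdh stood at 8.90 to 16.8 and Pgk1 at 8.11 to 14.5. How far reads lost to these copies lower such levels was not tested.

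**Figure D5:**
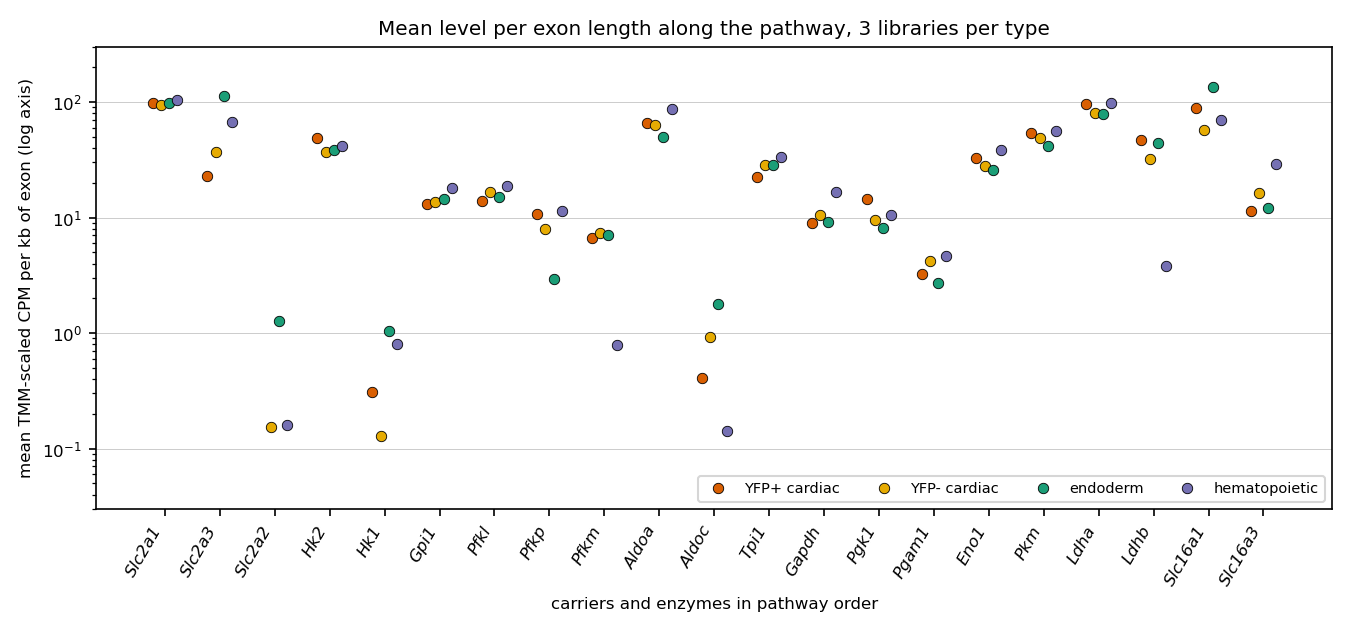
Mean level of the carriers and enzymes in pathway order, in TMM-scaled CPM per kilobase of exon on a log axis, each point the mean of 3 libraries of a type; the mean of Slc2a2 in YFP+ cells is 0 and is not drawn. The types lie apart at Slc2a3, Pfkp, Pfkm and Ldhb and also at the low Slc2a2, Hk1 and Aldoc, and closer together at most other steps, and Gapdh and Pgk1 lie low in all types.

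PFKFB enzymes make and remove fructose-2,6-bisphosphate, the strongest activator of phosphofructokinase. Pfkfb3, whose product favours the making of it, lies on chromosome 2 (11471433 to 11554077, minus strand). It was 11.4, 25.2 and 4.997 CPM in YFP+ cells against 59.2, 31.5 and 46.4 in YFP- cells, 43.8, 27.9 and 59.4 in hematopoietic mesoderm and 23.7, 23.2 and 24.8 in endoderm. The YFP+ libraries lay below those of YFP- cells and hematopoietic mesoderm without overlap. The 3.29-fold difference between the cardiac fractions had the lowest unadjusted p of the members in that pair (0.0241, edgeR adjusted p = 0.626). Pfkfb2 was highest in endoderm (70.4 ± 11.9 CPM) and lowest in YFP+ cells (26.5 ± 4.30), and Pfkfb1 and Pfkfb4 differed more between libraries of a type than between types, with Pfkfb1 at 6.26, 52.5 and 7.56 CPM in hematopoietic mesoderm. None of the 4 passed in any test.

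Pyruvate dehydrogenase turns pyruvate into acetyl-CoA inside the mitochondrion, and its kinases switch it off. The type means of the subunit genes lay between 81.5 and 120.1 CPM for Pdha1, with single libraries from 47.0 to 129, and between 85.3 and 105 CPM for Pdhb. Of the kinases, Pdk1, a known HIF1A target, was 35.0 ± 7.21 CPM in YFP+ cells and 61.4 ± 4.60 in YFP- cells without overlap (edgeR adjusted p = 0.762). Pdk3 was lowest in endoderm at 24.8 ± 3.496 CPM and between 46.6 and 49.3 in the other means, Pdk2 was uneven (0, 4.85 and 29.8 CPM in hematopoietic mesoderm), and Pdk4 did not exceed 3.52 CPM. Of the 5 tested genes of this group none passed (lowest edgeR adjusted p for any difference 0.553).

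Hif1a itself, on chromosome 12 (73901375 to 73947530, plus strand), stayed in a narrow range: 253, 248 and 291 CPM in YFP+ cells, 228, 291 and 315 in YFP- cells, 309, 302 and 309 in endoderm and 312, 327 and 386 in hematopoietic mesoderm. The largest difference between type means was 1.30-fold (edgeR adjusted p = 0.224). Bnip3, a HIF1A target that acts in mitochondrial turnover, was 42.2, 16.9 and 42.7 CPM in YFP+ cells and 15.2, 15.7 and 10.9 in YFP- cells, without overlap (edgeR adjusted p = 0.757). G6pdx, which opens the pentose phosphate branch, was 106 ± 9.997 CPM in endoderm and uneven in hematopoietic mesoderm, at 19.996, 99.8 and 38.0 CPM.

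Between the cardiac fractions, which differ in their Foxa2 history, no member was called by edgeR, DESeq2 or limma voom. The share of all genes called was 0% with edgeR, 0.776% with DESeq2 and 0% with limma voom, and 2 of 33 members (Slc2a3 and Pfkfb3) had an unadjusted p under 0.05, which is 6.06% against 7.49% of all genes. The fractions did not overlap for 8 of 33 members, while 12.1% of all genes did not overlap. Of the 8, Slc16a1, Hk2, Ldha and Bnip3 were higher in the YFP+ libraries (4 members, background 5.04%) and Slc2a3, Pfkfb3, Pdk1 and Pdha1 lower (4 members, background 7.04%). Pdha1 was 47.0, 102 and 96.0 CPM in YFP+ against 111, 120.1 and 129 in YFP- cells. The median log2 fold change of the members was -0.08, that of all genes 0.03, and the members' median took either sign over the alternatives (-0.15 to 0.07). The median coefficient of variation was 22.1% over 26 members in YFP+ cells and 43.7% over all genes of at least 10 CPM. It was 16% against 27.4% in YFP- cells, 12.8% against 17% in endoderm and 25.3% against 54.2% in hematopoietic mesoderm. Members and all genes were not matched for level, so these values do not show that the members are more even. The same lack of matching, for level and spread, limits the shares without overlap.

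In the pairs with endoderm, 14 of 33 members did not overlap against YFP+ cells and 9 against YFP- cells, with backgrounds of 30.3% and 29.4%. Against YFP+ cells, 7 were higher in endoderm (Slc2a2, Slc2a3, Slc16a1, Pfkfb2, Pdk1, Hif1a and G6pdx) and 7 lower (Pfkp, Aldoa, Pgk1, Eno1, Pkm, Ldha and Pdk3), each 21.2% of the members, against 19.3% of all genes higher and 10.9% lower. The 3 carriers among them were on the higher side and the 6 glycolytic enzymes on the lower. Between endoderm and hematopoietic mesoderm 11 members did not overlap (background 34.3%). Of these, 8 were lower in endoderm (Slc16a3, Pfkp, Aldoa, Gapdh, Pgam1, Eno1, Pfkfb3 and Hif1a), which is 24.2% of the members against 10.9% of all genes, and 3 were higher (Pfkm, Aldoc and Ldhb), which is 9.09% against 23.4% of all genes. Between YFP+ cells and hematopoietic mesoderm 10 members did not overlap (background 14%). Slc2a3, Gpi1, Aldoa, Tpi1, Gapdh, Pfkfb2, Pfkfb3 and Hif1a were lower in YFP+ cells, again 8 members or 24.2%, where 5.86% of all genes were, and Pfkm and Ldhb were higher (6.06%, background 8.12%). Between YFP- cells and hematopoietic mesoderm 4 members did not overlap (background 18.6%), with Pfkm and Ldhb higher in YFP- cells (background 11.8%) and Aldoa and Eno1 lower (background 6.87%). In these shares, too, members and all genes were not matched for level or spread, so they show no trait particular to the members. The common biological coefficient of variation over all genes was 0.852.

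Around the members, 106 further genes of sugar metabolism and the HIF system, in 9 lists that share Egln3 between HIF regulators and HIF targets, were compared in the same fit. Of these 82 were tested and 9 passed in at least 1 of the 8 tests, again a number without a background over all genes. Endoderm against the mean of the mesoderm types called 7 of the 82, all of them higher in endoderm (background 7.43%), and endoderm against hematopoietic mesoderm called 7, of which 6 were higher and 1 lower (background 5.65%). The 16 citric acid cycle genes, all tested, gave no call in any test, and neither did the 6 other carriers or the 4 gluconeogenic genes tested.

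Hkdc1, a hexokinase-like gene, was counted almost only in endoderm, at 51.1, 22.3 and 54.8 CPM. YFP- cells had no count, and the other 6 libraries had at most 1.46 CPM. Endoderm was at least 94.4-fold above YFP- cells against a floor of 3 counts a library, and endoderm against the mean of the mesoderm types passed in all 18 alternatives (edgeR adjusted p = 0.00134, at most 0.0122). Hk2 stood at 228 ± 40.1 CPM in the same libraries. Per kilobase of exon the endoderm means were 8.32 CPM for Hkdc1 and 38.1 for Hk2.

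Pdp1, the phosphatase that switches pyruvate dehydrogenase back on, had no counts in hematopoietic mesoderm and 21.8, 15.1 and 24.8 CPM in endoderm, at least 33.0-fold more (edgeR adjusted p = 0.0144, lost without endoderm library 1 or 3, up to 0.0582). YFP+ cells, at 3.75, 12.4 and 14.2 CPM, were at least 16.2-fold above hematopoietic mesoderm (edgeR adjusted p = 0.0392, and 0.0711 with the replicate number as a block), a call lost in 11 of 19 alternatives. Rpia, ribose-5-phosphate isomerase of the pentose branch, had a single count in hematopoietic mesoderm (0.173 CPM in library 2), 7.79, 17.2 and 19.97 CPM in endoderm (edgeR adjusted p = 0.0126, lost without endoderm library 2 or 3, up to 0.0580) and lower levels in both cardiac fractions, which also passed against hematopoietic mesoderm (edgeR adjusted p = 0.0491 and 0.0416), though not with the block (0.0865 and 0.0763) and with calls lost in 15 and 12 of 19 alternatives. Gyg, glycogenin, on which glycogen is begun, went the other way. It was 46.6, 38.5 and 39.3 CPM in endoderm and 179.7, 159 and 218 in hematopoietic mesoderm, 4.48-fold apart without overlap (log2 fold change -2.16, SE 0.48, edgeR adjusted p = 0.0252, lost without any 1 endoderm library, up to 0.117). The part of uneven detection in the absent Pdp1 and nearly absent Rpia counts of hematopoietic mesoderm was not tested.

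Among HIF regulators and targets, Ndrg1, Hif3a and Mxi1 were called higher in endoderm, whereas no pair passed for Hif1a. The lists as a whole were not shifted clearly. Endoderm against the mean of the mesoderm types called 1 of 8 regulators and 2 of 12 other targets tested (background 7.43%). Log2 fold changes were positive for 4 of the 8 and 7 of the 12. Their medians were 0.01 and 0.13, against 0.07 for all genes. Ndrg1, a hypoxia-induced gene, was 62.2, 99.3 and 53.0 CPM in endoderm and at most 10.8 in any other library, with 2 counts in all of hematopoietic mesoderm. It passed against the mean of the mesoderm types (log2 fold change 5.68, edgeR adjusted p = 0.00718, at most 0.0431 in 18 alternatives), and the log2 fold change was 6.69 without hematopoietic library 1 and 6.32 without YFP+ library 3. Hif3a, a HIF subunit that can restrain the others, was 58.8, 91.3 and 90.3 CPM in endoderm and 5.54, 8.14 and 2.73 in hematopoietic mesoderm (log2 fold change 3.87, SE 0.77, edgeR adjusted p = 0.0145, lost without endoderm library 2 or 3 and with limma voom, adjusted p up to 0.0740). Mxi1, a MYC antagonist, was 31.3, 62.5 and 37.4 CPM in endoderm and at most 3.12 in hematopoietic mesoderm (edgeR adjusted p = 0.0244, lost without any 1 endoderm library or hematopoietic library 1). The reverse order was seen in P4ha1, a collagen-modifying enzyme, which was 111, 107 and 249.7 CPM in hematopoietic mesoderm and at most 70.9 elsewhere. P4ha1 passed in the test of any difference (edgeR adjusted p = 0.0438, and 0.0965 with the block), a call lost in 11 of 18 alternatives, among them that without hematopoietic library 3, its highest (edgeR adjusted p = 0.189). Eno2, the neuronal enolase, passed against the mean of the mesoderm types (edgeR adjusted p = 0.0343, 0.0766 with the block, lost in 9 of 16 alternatives) at levels of 2.07, 0.518 and 8.20 CPM in endoderm. Of the epiblast and streak markers given above, 5 of 8 were highest in the same endoderm libraries by their mean and 3 in other types, and their part was not tested.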

How the data were processed

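Gene counts of 12 libraries were used, 3 from each of 4 sorted cell types. Per the submitters' processing notes, the authors worked with STAR 2.5.0a, Picard, HTSeq 0.6.0 and DESeq2 on mm10, and they deposited raw counts, one table a library. The gene annotation and the strand setting are not given in the sources used here. Of the tallied reads, 18.3% to 21.5% lay in genes, 34.5% to 43.6% in no feature and 35.1% to 44.8% mapped to several places. These and the other summary categories (5 in all) stayed out of library sizes and tests.

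From the counts, edgeR 4.0.16 (R 4.3.3) fitted all libraries together, with TMM factors, its expression filter and the quasi-likelihood test on 8 residual degrees of freedom, adjusted over 14170 genes. Ratios of counts plus 0.5 were compared by exact permutation of 369600 splits (scipy 1.17.1). Alternatives were other scaling and filters, a replicate block, DESeq2 1.42.0, limma 3.58.1 voom, fits of the types compared alone, and leaving out each library. Levels per kilobase used GENCODE exon lengths, and copies were sought with BLAST 2.17.0 at 95% identity over 100 bases. Members given in full were those called in a test, then those with the smallest p for any difference, 12 in all, and further genes were named where called. The members, lists and rules were chosen with earlier results of these data known. Deviations of same-numbered libraries from their type means correlated by 0.0141 on average over 18 pairs (-0.0168 to 0.0336), none over 0.1.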

Additional observations from a re-analysis of the deposited data

How the results depend on the processing

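The number of members called depended on the tool and on single libraries. No called difference of a named gene changed sign, but the median log2 fold change of the members did between the cardiac fractions (-0.15 to 0.07), between YFP- cells and endoderm (-0.06 to 0.13) and for endoderm against the mean of the mesoderm types (-0.08 to 0.07). The share of all genes called under the same setting is given in brackets. Between YFP+ cells and endoderm, where edgeR called 1, the count was 2 without the expression filter (1.15%), 2 with a minimum mean of 5 CPM (2.38%), 2 with DESeq2 (6.46%), 2 with limma voom (7.97%) and 3 in a fit of those types alone (8.28%). Between YFP- cells and endoderm, instead of 1, it was 2 without the filter (1.07%), 3 with DESeq2 (4.27%), 3 with voom (12.8%) and 2 with those types alone (10.1%). Between YFP+ cells and hematopoietic mesoderm, instead of 2, it was 1 with the replicate block (0.939%), 4 with DESeq2 (10.5%), 0 with voom (0.127%) and 0 with those types alone (0.121%). Between YFP- cells and hematopoietic mesoderm DESeq2 called 2 in place of 0 (7.43%). Between endoderm and hematopoietic mesoderm, instead of 3, DESeq2 called 5 (13.1%) and the fit of those types alone 1 (9.89%). Any difference gave 4 without the filter (5.31%) and 5 with DESeq2 (15.2% of the members, 13.5% of all genes) in place of 1, and endoderm against the mean of the mesoderm types gave 8 with voom in place of 3 (24.2% of the members, 21.8% of all genes). The causes were not tested.

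Leaving out 1 library at a time gave 0 members between the cardiac fractions in every fit (0% to 0.00655% of all genes). Against endoderm it gave 1 to 2 for YFP+ cells (0.473% to 2.65%) and 0 to 2 for YFP- cells (0.46% to 2.14%). Against hematopoietic mesoderm it gave 0 to 2 for YFP+ cells (0.695% to 2.79%) and 0 to 1 for YFP- cells (0.105% to 1.62%). Between endoderm and hematopoietic mesoderm it gave 0 to 3 (1.2% to 6.41%). Any difference gave 1 to 3 (1.41% to 6.48%). Endoderm against the mean of the mesoderm types gave 1 to 6 (3.2% to 9.91%). The 6, or 18.2% of the members, came without hematopoietic library 2, with 9.91% of all genes. With the replicate block the ratio of Pfkp to Pfkl had an exact permutation p of 0.0660 and that of Pfkm to Pfkl 0.0608. Over single genes, ratios and the medians of the members, 850 values were unchanged, 220 lost a call and 13 gained one. For genes and ratios, unchanged means on the same side of the threshold. For a median it means moved by less than the median SE of the members, so the 850 are not all test results. With 3 libraries a type, low genes such as Slc2a2, Hk1 and Pdk4 were counted unevenly, and small differences were not detectable.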
